A study of Mus musculus with 7 samples.

Results

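The regions described here are 10225 called peaks of the erythroid transcription factor EKLF in erythroblasts. No overlapping peak was called in earlier progenitors, and the peaks lie far from any gene with measured coding exons. They were chosen by measured values. Each had to be an interval of the erythroblast peak list that no progenitor peak overlapped by 1 bp or more. It also had to lie more than 50 kb from every coding exon start named in the expression table (build mm9). They made up 52.8% of the 19353 erythroblast peaks (Wilson 95% interval 52.1 to 53.5%) and 76.4% (75.7 to 77.2%) of the 13376 peaks found in erythroblasts alone. They are called distal erythroblast-only peaks below.

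The cells came from livers of mouse fetuses at stage E13.5 whose Klf1 gene, which encodes EKLF, carries a hemagglutinin tag. All groups share that tagged allele, and no untagged or Klf1-deficient group was used here. Erythroblasts were sorted as Ter119+CD71+ and progenitors as Ter119-CD71- together with Ter119-CD71+, where Ter119 marks maturing red cells and CD71 is the transferrin receptor. Chromatin immunoprecipitation with an antibody to the tag gave 1 pooled peak list in erythroblasts and 1 in progenitors, each with an input library as background, and RNA was sequenced from 2 erythroblast libraries and 1 progenitor library. The RNA table has 1 column a stage, so neither peaks nor RNA have a replicate check, and peaks within a list are not replicates of a stage. Read depths were not among the values used here.

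EKLF is a zinc finger factor of the Kruppel-like family that binds CACC-box sequences and is needed for adult beta-globin expression and for many genes of heme synthesis, the red cell membrane and the cell cycle. It binds at promoters and also at enhancers, regulatory stretches of DNA that can act on a gene over long distances. In red cell precursors such enhancers are often bound together with GATA1 and TAL1. No genome of build mm9 was in hand, so sequence under the peaks was not analysed here.

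The distance in the rule needs care, because it is a distance from listed exons. The expression table lists an exon only at 0.8 or more in both stages, so a gene silent in either stage is absent from it. The nearest listed genes on the left and on the right are called flanking genes here, and the stretch between them an interval. Flanking genes on both sides, placed in the order of the RefSeq annotation of GRCm38.p6, were found for 9703 of the distal erythroblast-only peaks, in 1404 intervals. The median peak had 10 unlisted protein-coding genes in its interval, and only 100 peaks (1.03%) had none. The label of these peaks as far from expressed genes therefore holds only for listed coding exons, and many lie in intervals that hold other genes. Unlisted genes were placed by order alone, so no distance to them is given.

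The sorted populations were checked by their markers. Of the 5 listed erythroblast marker items 4 rose and none fell, where rose and fell mean at least 2-fold higher or lower coverage in erythroblasts. Tfrc, which encodes CD71, had a summed exon coverage of 148 in erythroblasts and 21.3 in progenitors. Klf1 was the marker under the rule, at 145 in erythroblasts and 73.9 in progenitors. Of the 6 progenitor markers 2 were listed, and Myc fell, with 55.9 in erythroblasts and 307 in progenitors. None of the 11 hepatocyte and 8 macrophage markers was listed, so their levels in the sorted cells were not measured here. In such bulk samples fewer cells of a type and less RNA per cell cannot be told apart.

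Distal erythroblast-only peaks were the weakest class of erythroblast peaks by fold enrichment over background. That name, like -log10 p below, was read from the values, which the authors gave for each peak without a header. The distal erythroblast-only peaks had a median enrichment of 8.70, with a middle 80% of peaks between 6.24 and 13.3. It was 9.21 in the 2460 erythroblast-only peaks 1 to 50 kb from a listed exon and 10.6 in the 691 within 1 kb. Peaks shared with progenitors had medians of 9.93 over 50 kb away, on 3367 peaks, and 12.9 within 50 kb, on 2610 peaks. Sharing with progenitors was part of the choice of the peaks and nearness to exons was too, so these values describe the classes and were not tested.

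The authors' -log10 p ordered the classes differently from the enrichment. Its median was 8.90 in the distal erythroblast-only peaks, which is above the 8.58 of the erythroblast-only peaks at 1 to 50 kb and below the 9.88 of those within 1 kb. The shared peaks had medians of 14.5 over 50 kb away and 15.2 within 50 kb. The list starts at a -log10 p of 5, and 19.6% of distal erythroblast-only peaks (18.9 to 20.4%) lay under 6, against 5.79% (5.05 to 6.63%) of the shared peaks over 50 kb away. A typical width was 1693 bp, against 1631 bp at 1 to 50 kb, 1693 bp within 1 kb and 1962 bp in the shared peaks over 50 kb away. The total length under distal erythroblast-only peaks was 19.0 Mb.

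**Figure D1:**
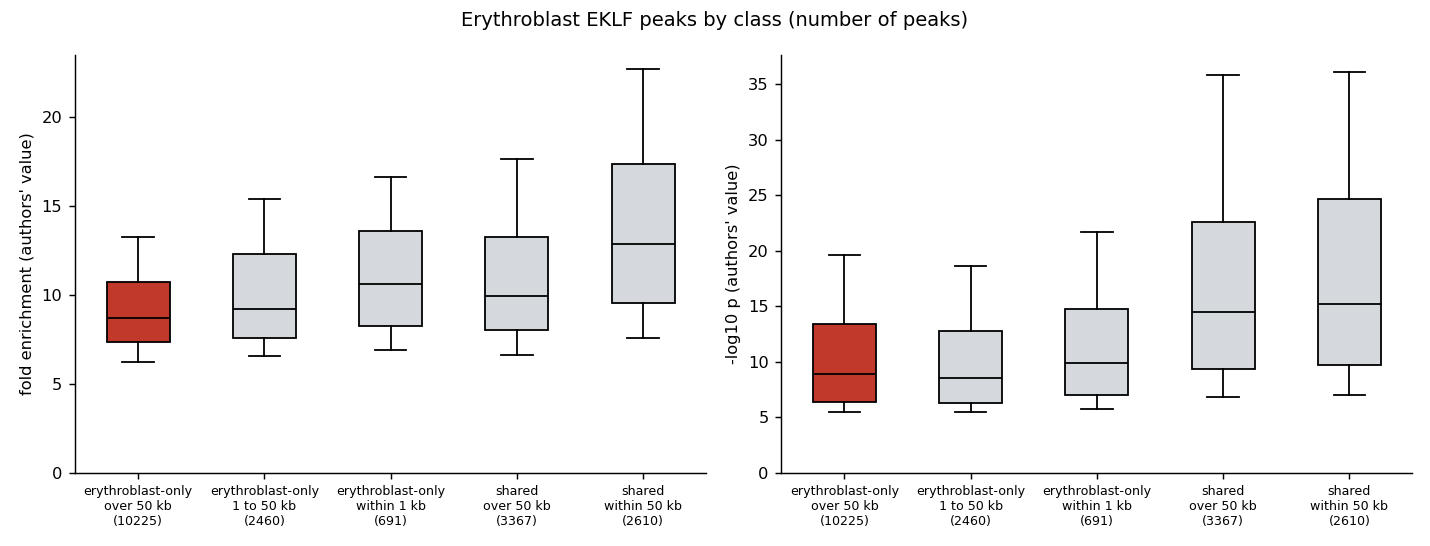
Fold enrichment (left) and -log10 p (right), both the authors' values, of the erythroblast peaks in 5 classes, where boxes span the middle 50% of peaks, lines mark medians and whiskers reach the 10th and 90th percentiles. The distal erythroblast-only peaks, in red, have the lowest median enrichment, 8.70, while their median -log10 p of 8.90 lies slightly above that of the erythroblast-only peaks at 1 to 50 kb, 8.58.

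They were scarcer among the highest-ranked peaks of the list. In the decile of erythroblast peaks with the highest enrichment 404 of 1936 were distal erythroblast-only peaks (20.9%), and in the lowest decile 1258 of 1935 (65.0%). By -log10 p the highest decile held 473 (24.4%) and the lowest 1365 (70.5%). Only 3 were among the 100 peaks of highest enrichment and 158 among the 1000 highest. An enrichment of 20 or more was reached by 126 distal erythroblast-only peaks (1.23%, 1.04 to 1.47%), against 6.27% (5.50 to 7.14%) of shared peaks at the same distances. When erythroblast-only peaks alone are considered, distal peaks made up 59.6% of those in the highest decile by enrichment and 81.7% of those in the lowest decile. By -log10 p the same shares were 76.3 and 78.3%, so within the erythroblast-only peaks distance went with enrichment and hardly with -log10 p.

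**Figure D2:**
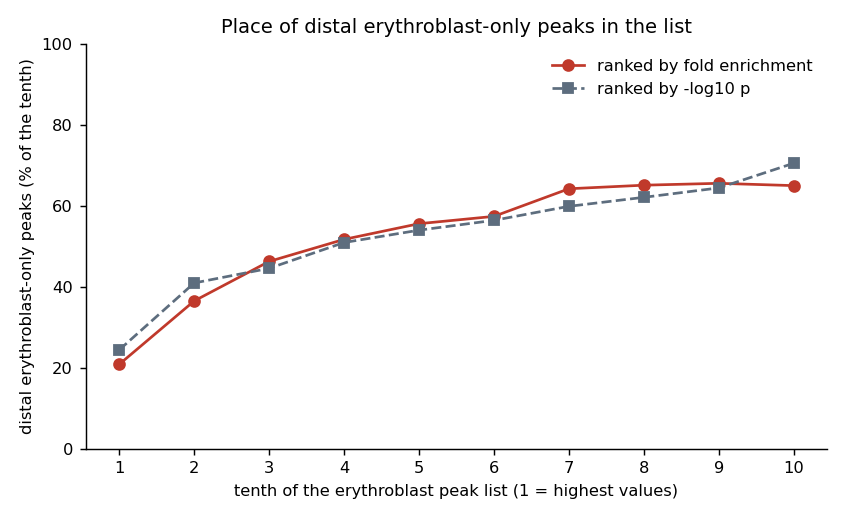
Share of distal erythroblast-only peaks (%, y axis) by decile of the erythroblast peak list (x axis, 1 being the highest values), ranked by fold enrichment (red circles) or by -log10 p (grey squares). By enrichment the share levels off between 64.2 and 65.6% in the 4 lowest deciles, and by -log10 p it reaches 70.5% in the lowest.

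Beyond 50 kb, the peaks had much the same enrichment at all distances. Median enrichment was 9.09 at 50 to 100 kb, 8.52 at 100 to 250 kb, 8.65 at 250 to 500 kb, 8.83 at 500 to 1000 kb, 8.65 at 1000 to 2500 kb and 8.52 beyond that. Across the 10195 peaks on chromosomes with a listed exon, Spearman's rho with distance was -0.02 for enrichment, 0.01 for -log10 p and -0.01 for width, as a description of peaks that share 1 library. Shared peaks over the same bins had medians of 11.4, 10.7, 9.84, 9.67, 9.63 and 9.81. The erythroblast-only share of the peaks in a bin was 65.2, 72.1, 75.5, 77.0, 78.2 and 79.0% in order of distance, so shared peaks made up less of each bin with distance. In all, 955 peaks (9.34%) lay within 100 kb of a listed exon and 3881 (38.0%) over 1 Mb away.

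**Figure D3:**
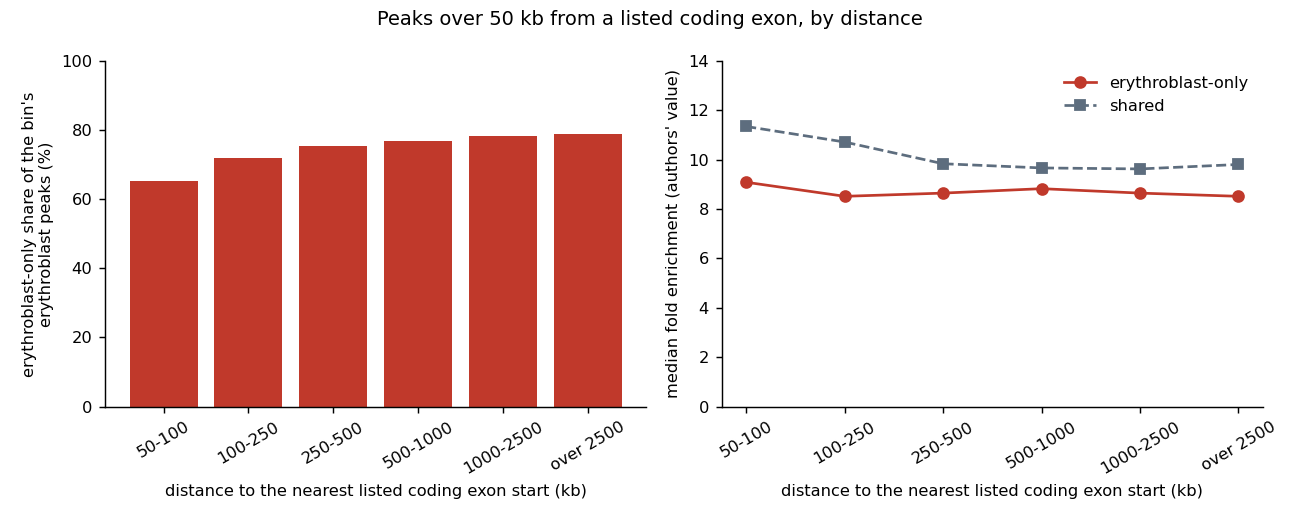
Erythroblast peaks over 50 kb from a listed coding exon start in 6 bins of distance in kb (x axes): the share found in erythroblasts alone (left, %) and the median fold enrichment (right, the authors' values) of erythroblast-only peaks (red) and shared peaks (grey). The share climbs with distance, to 79.0% in the farthest bin, while the median enrichment of erythroblast-only peaks stays between 8.52 and 9.09.

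The limit of 50 kb cut through a continuous range of peaks. The 5 peaks just outside it lay between 50 and 50.2 kb away with enrichments of 10.1 near Slc38a10, 9.05 near Dhdds, 14.1 near Fancm, 11.7 near Ssh1 and 9.67 near Ywhab. The 5 erythroblast-only peaks just inside lay between 49.6 and 50 kb away with enrichments of 6.31, 8.83, 8.65, 8.65 and 10.3.

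Most of the genome lies over 50 kb from a listed exon. Between the first and last peak or exon of each chromosome, 2184 of 2578 Mb (84.7%) lay over 50 kb from one, assembly gaps included. In that territory there were 4.68 erythroblast-only and 1.54 shared peaks per Mb. Closer to listed exons there were 7.996 erythroblast-only and 6.62 shared peaks per Mb. Both kinds were thus denser near listed exons, and the ratio of erythroblast-only to shared peaks was 3.04 in the far territory and 1.21 near exons. Of the 1402 peaks found in progenitors alone, 910 (64.9%, 62.4 to 67.4%) lay over 50 kb away.

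The strongest distal erythroblast-only peak lay on chromosome 10 from 62891958 to 62893672, with an enrichment of 38.9 and a -log10 p of 54.5. Its flanking genes were Dna2, a helicase and nuclease of DNA replication, and Jmjd1c, of the histone demethylase family. Both fell, Dna2 with a coverage of 1.19 in erythroblasts and 4.90 in progenitors on 1 listed exon, and Jmjd1c with 3.53 in erythroblasts and 17.1 in progenitors. The peak was 463 kb from the nearer of these exons, and 12 unlisted genes, among them Sirt1 and Atoh7, lay in the interval.

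The second strongest lay beside a known erythroid regulator, on chromosome 8 from 125243420 to 125245424. The nearest listed exon, 69.2 kb off, belonged to Cbfa2t3, a corepressor that works in complexes with TAL1 and GATA1. Its enrichment was 37.1 and its -log10 p 35.9, and a progenitor peak lay 40.0 kb away. It was the lone distal erythroblast-only peak in its interval, which ends at Ankrd11 and holds the unlisted genes Acsf3 and Cdh15. Cbfa2t3 had 50.5 in erythroblasts and 88.1 in progenitors, a log2 difference of -0.79 that did not reach the 2-fold rule.

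The third lay on chromosome 6 from 96960221 to 96961833 with an enrichment of 33.3, 164 kb from Tmf1, a Golgi protein gene. The fourth lay on chromosome X from 161143983 to 161145760 with 31.0, 283 kb from Piga, which starts the synthesis of the GPI membrane anchor. The fifth lay on chromosome 14 from 73347467 to 73349453 with 29.5, between Xpo7, a nuclear exporter used in red cell maturation, and Itm2b. Xpo7 had 14.5 in erythroblasts and 11.7 in progenitors, and Itm2b 42.5 in erythroblasts and 71.1 in progenitors. Neither reached the 2-fold rule.

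The other 5 of the 10 strongest had enrichments of 27.1 to 28.9. One on chromosome 8 from 48230585 to 48232000 lay 299 kb from Irf2, an interferon regulatory factor gene that had 6.47 in erythroblasts and 9.78 in progenitors. One on chromosome X from 79899691 to 79901381 lay 2958 kb from Tab3 and 4.18 kb from another erythroblast peak. The peak on chromosome 8 from 63470833 to 63472769 lay between Clcn3, a chloride transporter gene, and Nek1, a kinase gene, with no other protein-coding gene in the interval. Both of those genes rose, Clcn3 with 8.35 in erythroblasts and 1.02 in progenitors and Nek1 with 4.80 in erythroblasts and 0.949 in progenitors, each on 1 listed exon.

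The remaining pair lay near better covered genes. The peak on chromosome 9 from 59597669 to 59599904 was 71.8 kb from Pkm, a pyruvate kinase gene of glycolysis that had 1466 in erythroblasts and 1365 in progenitors. The peak on chromosome 11 from 109080798 to 109083299 was 141 kb from Gna13, a G protein subunit gene that rose, with 28.2 in erythroblasts and 5.15 in progenitors on 3 listed exons.

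A high -log10 p picked out other peaks, mostly wide ones. Of the 10 highest, 7 were over 6 kb wide, and none was among the 10 strongest by enrichment. The highest, on chromosome 2 from 52551112 to 52559110, was 7999 bp wide with a -log10 p of 283 and an enrichment of 9.46. The next, on chromosome 17 from 39979355 to 39986556, had 278 with an enrichment of only 2.94, which ranked 19351 among the 19353 erythroblast peaks. Its nearest listed exon, of the red cell membrane gene Rhag, was 979 kb away, and its interval held 75 unlisted genes. The widest of all, 41154 bp on chromosome 7 from 67001942 to 67043095, had 254 with an enrichment of 5.58. It lay between Herc2 and Klf13 in an interval that holds Ube3a and Snrpn, genes of an imprinted region.

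Wide peaks were few and not strongly enriched. There were 59 of 5 kb or wider (0.577%), against 2.05% of shared peaks over 50 kb away. Their median enrichment was 7.72 and their median -log10 p 21.1, against 8.70 and 8.86 in the narrower distal peaks, and the highest enrichment among them was 15.1. Across all distal peaks the -log10 p went with width (rho 0.46) and with enrichment (rho 0.55), while width and enrichment went together hardly at all (rho -0.05, n = 10195 for each). Among the wide ones, a peak of 25361 bp on chromosome X from 166422041 to 166447401 reached an enrichment of only 5.03, and one of 16731 bp on chromosome 3 from 93007290 to 93024020 had 10.9. That second peak lay in an interval of 3937 kb from Chtop to Mrpl9 with 85 unlisted genes. S100 calcium-binding protein genes are among them, next to Chtop in the gene order, and their distance to the peak is not known.

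Of the 10 peaks of highest -log10 p, one was both narrow and fairly enriched. It lay on chromosome 5 from 90969868 to 90972450, with a -log10 p of 107 and an enrichment of 15.8. Its interval, from Ankrd17 to G3bp2, holds Alb and Afp, the albumin and alpha-fetoprotein genes of liver cells, and Pf4 of platelets. None of those was listed, and the interval held 6 distal erythroblast-only peaks.

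Most distal erythroblast-only peaks had no other erythroblast peak close by. Another erythroblast peak lay within 12500 bp of 26.8% (25.9 to 27.6%), against 35.7% (33.8 to 37.6%) of erythroblast-only peaks at 1 to 50 kb, 36.8% (33.2 to 40.4%) of those within 1 kb and 22.8% (21.4 to 24.2%) of shared peaks over 50 kb away. Within 5 kb the shares were 18.2, 19.5, 17.9 and 15.5% in the same order. Erythroblast peaks are sparser far from listed exons, and no comparison at equal density of peaks was made. Chained at a spacing of 12500 bp among themselves, with peaks of other classes left aside, 2238 distal erythroblast-only peaks (21.9%) formed 1052 clusters, 934 of them pairs, and the other 7987 joined no cluster. Clustered peaks were no stronger, with a median enrichment of 8.27 against 8.83 for those in no cluster.

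The largest clusters held 5 peaks. One spanned 30.7 kb on chromosome 3 from 68528188 to 68558874 between Mfsd1 and Smc4, a condensin subunit gene that rose, with 57.7 in erythroblasts and 12.7 in progenitors. Its 5 peaks had enrichments of 5.34 to 11.7. The other spanned 25.2 kb on chromosome 5 from 144534314 to 144559525, with listed exons no nearer than 58.8 kb and enrichments of 4.87 to 7.57. It lay between Usp42 and Eif2ak1, the heme-regulated kinase that slows translation in red cells short of heme. Eif2ak1 rose, with 39.6 in erythroblasts and 5.61 in progenitors, and all 3 of its listed exons were higher in erythroblasts. Among the 12 clusters of 4 peaks were one between Ube2g2 and Pfkl, a glycolysis gene with 197 in erythroblasts and 121 in progenitors, and one between Acss1 and Nsfl1c.

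A progenitor peak was less often near distal erythroblast-only peaks than near erythroblast-only peaks closer to listed exons. A progenitor peak lay within 50 kb of 21.3% (20.5 to 22.1%) of distal erythroblast-only peaks, against 53.6% (51.6 to 55.6%) of erythroblast-only peaks at 1 to 50 kb and 55.7% (52.0 to 59.4%) of those within 1 kb. Progenitor peaks are themselves sparser far from listed exons, where 57.9% of all 7358 lay, in 84.7% of the span counted. A lower share thus goes with the distance rule itself, and no comparison at equal density of progenitor peaks was made. The median distance to a progenitor peak was 150 kb. Only 95 (0.929%) lay within 1 kb of a progenitor peak, so few were near misses of the overlap rule, and 209 (2.04%) lay over 1 Mb from any.

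By chromosome the density of distal erythroblast-only peaks was highest on X among the chromosomes with listed exons. X held 974 of them, 6.36 per Mb of far territory (exact Poisson 95% interval 5.97 to 6.78), while autosomes ranged between 3.77 on chromosome 11 and 5.26 on chromosome 4, with 4.55 pooled. Shared peaks over 50 kb away had 1.68 per Mb on X, inside the autosomal range of 1.05 to 1.81. Near listed exons X held 53 erythroblast-only and 14 shared peaks in 10.6 Mb. Both kinds were sparser there than over all chromosomes, which had 7.996 and 6.62 per Mb near listed exons. In the far territory the density of distal erythroblast-only peaks on X was 1.40 times that of autosomes. It was 1.40 and 1.45 times when peaks at or above the list's median -log10 p or enrichment were counted. Y had no listed exon, so the rule could take any peak there. Of its 31 peaks 30 were distal erythroblast-only peaks, in a span of only 2.60 Mb. No label used here gives the sex of the fetuses.

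**Figure D4:**
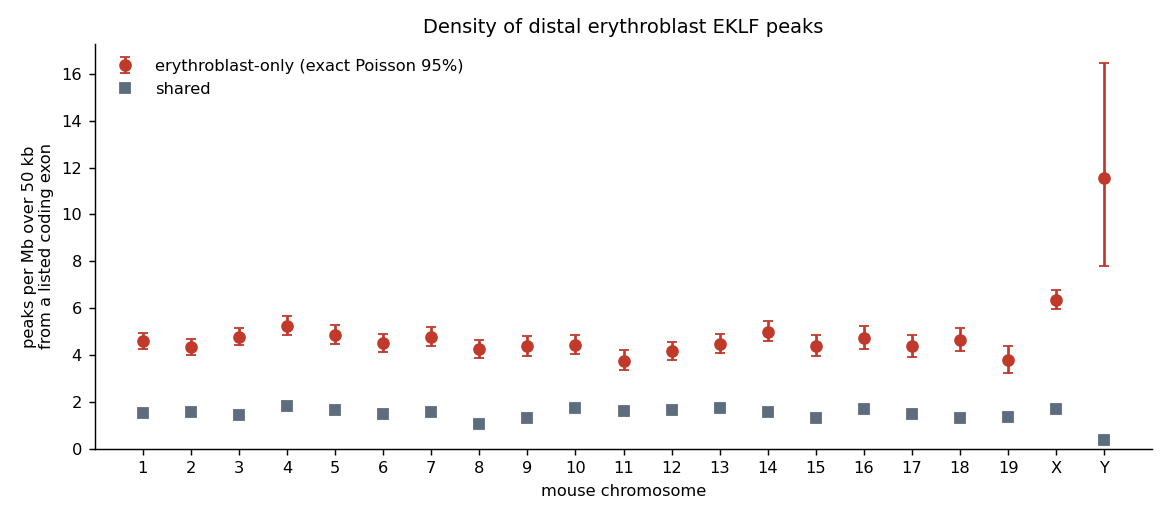
Peaks per Mb of territory over 50 kb from a listed coding exon (y axis) by mouse chromosome (x axis), for erythroblast-only peaks (red, bars being exact Poisson 95% intervals for counting error only) and shared peaks (grey). X, at 6.36, lies above all 19 autosomes for erythroblast-only peaks, and Y rests on 30 peaks.

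Local density peaked in a few places. Of 2406 stretches of 1 Mb with a distal erythroblast-only peak, the median held 4 and 119 held 10 or more. The fullest was on X between 122063505 and 122961990 with 25 peaks and a median enrichment of 8.33. Next to it, from 121098945 to 121983165, lay 20 more. Both belong to the interval from Hmgn5 to Cstf2, the fullest of all with 167 distal erythroblast-only peaks and 54 shared ones over 24.4 Mb. Hmgn5, a nucleosome-binding protein gene, rose on 1 listed exon, with 29.2 in erythroblasts and 4.98 in progenitors, and Cstf2, of mRNA 3' end cleavage, had 27.6 in erythroblasts and 41.5 in progenitors. The interval from Araf to Pgrmc1, also on X, held 136 over 13.7 Mb.

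Several of the densest intervals hold families of like-named genes. The interval from Mob2 to Ctsd on chromosome 7 had 12 peaks in 360 kb and holds a run of 5 Krtap genes, of hair keratin-associated proteins. That from Tomm40 to Zfp180 on chromosome 7 had 51 peaks and 5 shared ones and a run of 70 Vmn genes, of vomeronasal receptors. That from Inip to Fkbp15 on chromosome 4 had 22 peaks and 1 shared one with a run of 24 Mup genes, of major urinary proteins. That from Zfp317 to Fbxl12 on chromosome 9 had 12 peaks and 1 shared one with 16 Olfr genes, of olfactory receptors, and that from Hif3a to Irf2bp1 on chromosome 7 had 19 peaks and 3 shared ones with 11 Psg genes. Other dense intervals had no such run, as from Dctn3 to Vcp on chromosome 4 with 25 peaks in 1.33 Mb.

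Counted over all autosomal intervals with a distal erythroblast-only peak, the 126 with a run of 5 or more neighbouring genes of the same name stem had 5.75 such peaks per Mb of far territory (5.46 to 6.05). The other 1223 had 4.67 (4.56 to 4.78). Shared peaks had 1.56 and 1.49 per Mb in the same intervals. Without the 5 densest of the intervals with a run the value was 5.59 (5.30 to 5.89). The rule for runs was made after the densest intervals had been seen, and the ranges in parentheses cover counting error only. Intervals without a distal erythroblast-only peak were left out, so the peaks counted also chose the intervals. How much this raised the density in each group was not measured. Leaving out the 5 densest does not undo either choice. The values therefore describe the intervals kept, and the difference between the groups was not tested.

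The listed genes nearest to distal erythroblast-only peaks differed between the stages about as often as all listed genes. Genes silent in either stage are absent from both counts, and the median peak had 10 unlisted protein-coding genes in its interval. The values therefore do not cover unlisted genes, some of which may lie nearer to a peak. Over all 5194 listed genes the share that rose was 15.3% and the share that fell 13.2%. Of the 1840 genes nearest to at least 1 such peak 295 rose (16.0%, 14.4 to 17.8%) and 235 fell (12.8%, 11.3 to 14.4%). Among the 292 nearest to 10 or more peaks 52 rose (17.8%, 13.8 to 22.6%) and 28 fell (9.59%, 6.72 to 13.51%), and among the 340 nearest to 5 to 9 peaks 50 rose (14.7%) and 53 fell (15.6%). Genes nearest to a peak of enrichment 15 or more rose in 74 of 445 cases (16.6%, 13.46 to 20.4%). These shares lie near the background, and the median log2 difference was 0.04 for listed genes nearest to a peak and 0.03 for all listed genes.

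A gene flanked a distal erythroblast-only peak where it was the next listed gene on either side. By this measure 43.6% of all listed genes flanked one, so flanking a peak is common. Of the 103 listed genes on 6 lists of globins, red cell membrane, heme and iron, erythroid regulators, stem and progenitor genes and red cell enzymes, 52 flanked one (50.5%). Of these 26 rose, 3 fell and 23 did neither, and of the 51 that flanked none 27 rose. Their median log2 differences were 0.99 when flanking and 1.19 when not.

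Both listed globin items flanked distal erythroblast-only peaks. The beta-globin item Hbb-b2/Hbb-bt, which joins 2 adult gene names at the same exon position, had 1686 in erythroblasts and 9.59 in progenitors, on 1 listed exon. The 10 peaks beside it lay between 108 and 978 kb away. The strongest of them, on chromosome 7 from 111419487 to 111422422, reached an enrichment of 20.7 and lay 458 kb away, and it was nearer to Trim12c, at 66.9 kb. The unlisted genes Hbb-bs, Hbb-y and Hbb-bh1 belong to the same interval. For alpha-globin the joined item Hba-a1/Hba-a2 had 4043 in erythroblasts and 159 in progenitors, and its 2 peaks lay 290 and 766 kb away. The farther was the stronger, with an enrichment of 8.33 on chromosome 11 from 32963185 to 32968248, and was nearer to Npm1, at 88.4 kb.

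Of 16 listed membrane and surface genes 10 flanked distal erythroblast-only peaks (62.5%, against 43.6% of all listed genes). Over the whole list, flanking or not, 13 of the 16 rose. Kel, a blood group protein gene, rose, with 41.1 in erythroblasts and 9.13 in progenitors, and had a peak of enrichment 20 and -log10 p 54.0 on chromosome 6 from 41756474 to 41758317, 105 kb away. Gypc, which encodes glycophorin C, rose, with 39.6 in erythroblasts and 9.96 in progenitors, and its strongest peak of 6 had an enrichment of 18.1 at 470 kb, nearer to Stard4 at 173 kb. Epb41, the membrane skeleton protein 4.1 gene, rose, with 288 in erythroblasts and 142 in progenitors, and had a peak of 13.52 at 67.1 kb. Xk, a partner of Kel, had 17.5 in erythroblasts and 30.6 in progenitors, under the 2-fold rule, beside 13 peaks of up to 16.8. Ank1, Add2 and Sptb, of the same skeleton, flanked none.

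Of 22 listed heme and iron genes 9 flanked distal erythroblast-only peaks (40.9%, against 43.6% of all listed genes). Over the whole list, flanking or not, 13 of the 22 rose. Slc25a37, the mitochondrial iron importer, rose, with 196 in erythroblasts and 6.42 in progenitors, and its strongest peak of 9 had an enrichment of 10.9 at 561 kb on chromosome 14. Cpox, an enzyme late in heme synthesis, rose, with 755 in erythroblasts and 281 in progenitors, beside 7 peaks of at most 9.08. Slc25a38, a mitochondrial glycine carrier, rose, with 58.3 in erythroblasts and 4.12 in progenitors, and had a peak of 16.7 at 113 kb, nearer to Gorasp1 at 73.6 kb. Abcg2, a membrane exporter of porphyrins, had 40 peaks beside it and 4.17 in erythroblasts and 8.70 in progenitors, under the rule. Urod also flanked a peak and rose, while Fech, Steap3, Slc11a2 and Fam210b flanked one and neither rose nor fell. Tfrc, Alad and Abcb10 rose and flanked none.

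Of 27 listed regulators 13 flanked distal erythroblast-only peaks (48.1%, against 43.6% of all listed genes). Over the whole list, flanking or not, 7 of the 27 rose. Klf3, a repressor of the EKLF family, rose, with 45.3 in erythroblasts and 22.1 in progenitors, and had a peak of enrichment 20.7 on chromosome 5 from 64896257 to 64897682, 315 kb away. Bach1, a heme-sensing repressor, rose, with 48.7 in erythroblasts and 1.99 in progenitors, beside 12 peaks of up to 13.7, the strongest of them nearer to Sod1. Bcl11a, a repressor of embryonic globin genes, had 43.3 in erythroblasts and 82.9 in progenitors, under the rule, and a peak of 15.7 on chromosome 11 from 23740160 to 23741967, 243 kb away. Ikzf1, a lymphoid and erythroid factor gene, had 65.0 in erythroblasts and 115 in progenitors beside 24 peaks of up to 15.1. Tal1 had 44.9 in erythroblasts and 43.2 in progenitors, with a peak of 12.9 at 307 kb. Gata1 and Klf1 themselves flanked none.

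The 3 blood genes that fell beside distal erythroblast-only peaks were Myc, Trim33 and Car1. Myc, a driver of proliferation, had 24 peaks beside it, the strongest of enrichment 18.3 at 1588 kb on chromosome 15 from 60229348 to 60231133. For all 3 the strongest peak was nearer to the other flanking gene, Washc5 for Myc, Hipk1 for Trim33 and Impa1 for Car1. Trim33, a transcription cofactor gene of blood formation, had 4.61 in erythroblasts and 24.4 in progenitors. Car1, a carbonic anhydrase of mature red cells, had 35.2 in erythroblasts and 137 in progenitors beside 31 peaks of up to 23.5.

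Red cell enzymes and maturation genes flanked distal erythroblast-only peaks in 17 of 32 cases (53.1%, against 43.6% of all listed genes). Over the whole list, flanking or not, 18 of the 32 rose. Cpeb4, an RNA-binding regulator of translation, rose on 1 listed exon, with 76.8 in erythroblasts and 1.49 in progenitors, and had a peak of 14.9 at 418 kb. Pim1, a survival kinase gene, rose, with 106 in erythroblasts and 25.3 in progenitors, and had a peak of 12.9 at 52.7 kb on chromosome 17 from 29573223 to 29575364. Map1lc3b, an autophagosome protein gene, rose on 1 listed exon, with 18.9 in erythroblasts and 5.24 in progenitors, and its strongest peak had a -log10 p of 45.4 at 225 kb, nearer to Slc7a5 at 55.0 kb. Trim10 rose, with 26.3 in erythroblasts and 2.63 in progenitors, and had a peak of 14.3 at 263 kb.

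**Figure D5:**
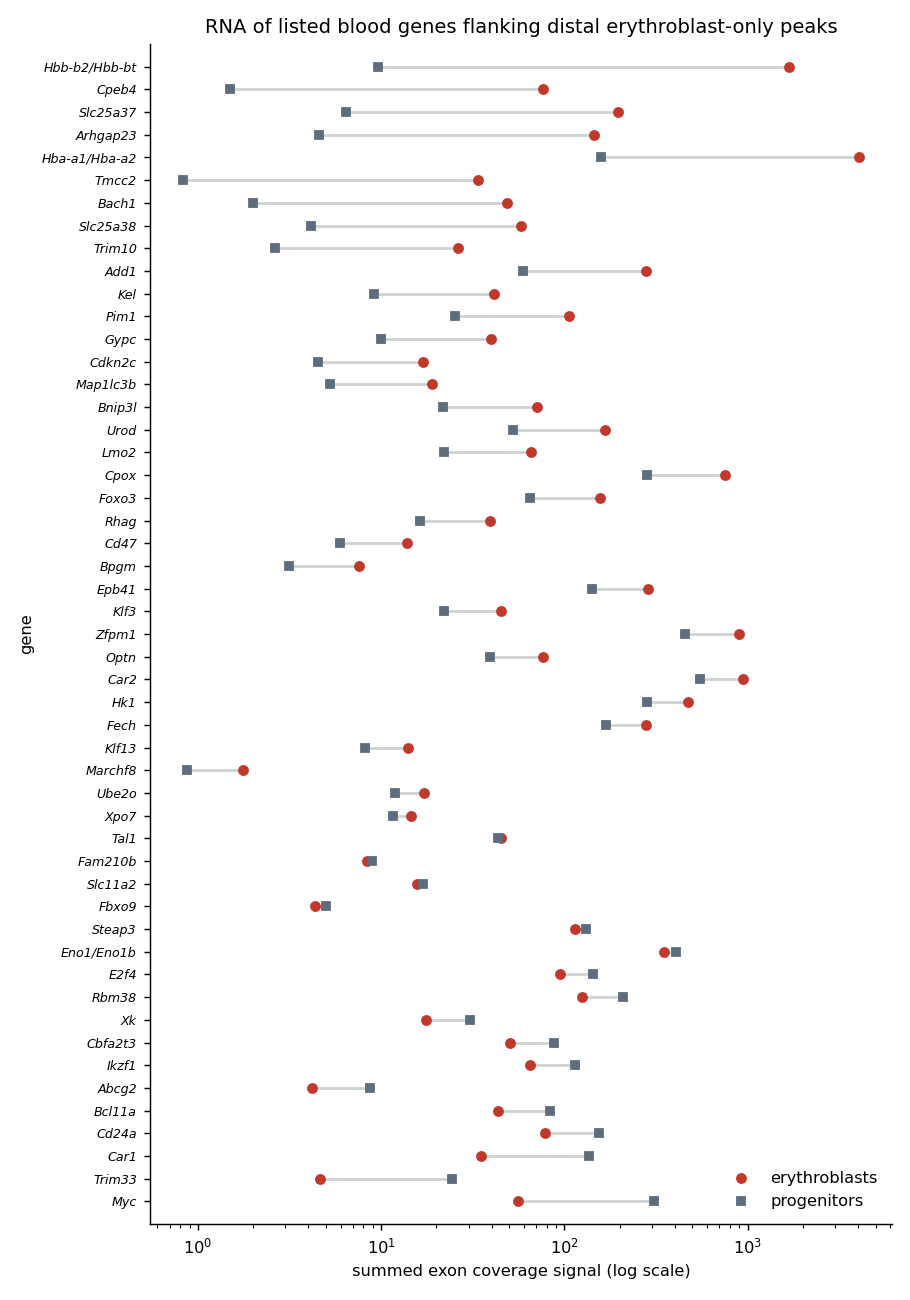
Summed exon coverage signal (x axis, log scale) in erythroblasts (red circles) and progenitors (grey squares) for 51 of the 52 listed genes of the 6 blood lists that flank a distal erythroblast-only peak, ordered by log2 difference. Levels are compared within a gene only, and 25 of those drawn lie at least 2-fold higher and 3 at least 2-fold lower in erythroblasts.

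Genes of the stem and progenitor list were mostly unlisted. Of 24 genes 4 were listed, and 16 of the 20 unlisted ones lay in an interval with at least 1 distal erythroblast-only peak, against a background of 67.4% of all 16702 unlisted protein-coding genes of the RefSeq table. Kit, the stem cell factor receptor gene, lay in an interval from Fip1l1 to Tmem165 with 4 peaks, of which the strongest, on chromosome 5 from 75439166 to 75441602, reached an enrichment of 12.9 and a -log10 p of 20.3. Myb, a factor of progenitor growth, lay between Bclaf1 and Hbs1l with 5 peaks, of which the strongest, on chromosome 10 from 20368335 to 20369932, had 14.9. Meis1 lay in an interval with 12 peaks of up to 17.8, and Cd34 in one with 9 of up to 12.4. Fli1 and Ets1, neighbouring Ets factor genes, lay in one interval with 9 peaks of up to 14.1. Since these genes were unlisted, no RNA level is given for them.

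Unlisted genes of the red cell lists lay in such intervals too. Slc14a1, a urea transporter gene of the red cell membrane, lay between Epg5 and Adnp2 with 5 peaks of up to 23.5. Btg2, an antiproliferative gene, lay in an interval with 2 peaks of up to 22.3. Alas2, the first enzyme of heme synthesis in red cells, lay between Apex2 and Gnl3l with 2 peaks, the stronger of 11.8 and -log10 p 29.0. Sox6, a repressor of embryonic globin genes, lay in an interval with 4 peaks, and Nfia in one with 20.

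Genes of other tissues lay in such intervals as well, which puts those counts beside a like measure. Of 9 neuronal genes, none listed, 8 lay in an interval with a distal erythroblast-only peak, as did 6 of 11 hepatocyte, 5 of 8 macrophage and 3 of 8 muscle genes. Over the 6 blood lists 36 of 53 unlisted genes did, which is near the background of 11250 of 16702 unlisted genes (67.4%).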

How the data were processed

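Peaks of EKLF and exon coverage of RNA were taken as the authors deposited them, with 1 pooled peak list and 1 RNA column for each stage. The build is mm9, per the submitters' processing notes. No source used here names the aligner, the peak caller or the read counter. In the deposited peak lists column 7 was read as a ratio (fold enrichment over background) and column 8 as -log10 p, from their values, and both were compared within 1 list only. The deposited expression table carries the name RPKM. Its values were read instead as a coverage signal per coding exon, since all are whole multiples of 1 step a column, and levels were compared for the same gene only. No source used here says whether the erythroblast column pools both libraries.

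The erythroblast-only peaks over 50 kb from a listed exon, the gene lists and the rules were chosen with earlier results of these data known. Distances ran between nearer edges, and an overlap of 1 bp made a peak shared. Of 6853 transcripts 6772 matched a symbol in the RefSeq table of GRCm38.p6, whose coordinates were used only to check gene order and spacing. For each gene the transcript with most listed exons was kept, its exons were summed, and genes with the same exon positions were joined. Stage differences were taken as log2((erythroblasts + 1) / (progenitors + 1)) for genes reaching 1 in either stage, a scale that understates the change of low genes. Genes rose or fell where they differed at least 2-fold, since 1 column a stage allows no test.

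An interval between flanking genes was used where both matched the RefSeq order at a like spacing. Peaks named in the text were the strongest, those of highest -log10 p, the widest, the farthest, the largest clusters, those at the 50 kb limit and the strongest beside genes of the lists. Some items that these rules name are not reported here. The densest stretches and intervals were named after their values were seen. Intervals of shares are Wilson 95% intervals and those of densities exact Poisson 95% intervals, both for counting error only. Distances and classes were checked on simulated data. Python 3.11.15, pandas 2.3.3, numpy 2.4.6, scipy 1.17.1 and matplotlib 3.10.9 were used. Alternatives covered the overlap, the distance limit, the peak threshold, the windows, the pseudocount, the filter and the gene summary.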

Additional observations from a re-analysis of the deposited data

How the results depend on the processing

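The count of distal erythroblast-only peaks was 10225 and stayed between 9270 and 11011 with limits of 25 and 100 kb, other overlap rules and distances measured at the peak centre. With peaks at or above the list's median -log10 p alone it was 4160, by construction, and the medians then moved to 10.6 for enrichment, 1990.5 bp for width and 14.7 for -log10 p. Other settings left these medians near their values. The share with another erythroblast peak near was 18.2% in a window of 5 kb and 38.2% in 25 kb, and the share with a progenitor peak near was 10.2% in 20 kb and 37.8% in 100 kb, as wider windows take in more peaks. The share of nearest genes that rose was 19.5% with a pseudocount of 0.1, against 18.1% of all listed genes, 9.89% with 5, against 9.86%, 19.96% among genes that reach 5 in either stage, against 17.9%, and 13.53% by the median of exon log2 ratios, against 13.0%. The background thus moved with it, and the cause was not tested. The number of blood list genes flanking a distal erythroblast-only peak or lying in an interval with one was 88, and 74 to 102 with the other distance limits. The ratios of density on X and in intervals with runs of like-named genes, whose alternatives were chosen after seeing the data, stayed at 1.40 to 1.45 and at 1.18 to 1.23. The ratio for runs covers only intervals chosen for holding a distal erythroblast-only peak, and no alternative changed that choice. The share of peaks with an EKLF motif was not run, since no mm9 genome was used here. No paired analysis was possible because each stage has 1 peak list and 1 RNA column. Read depth is unknown, so how many weak peaks depth allows was not tested.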

Other observations

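The distal erythroblast-only peaks farthest from a listed exon all lay on X in the interval from Hmgn5 to Cstf2. The 5 farthest were 11895 to 12152 kb away, with enrichments of 5.51 to 9.92. The farthest, from 118441046 to 118443831, was 2786 bp wide and had a progenitor peak 37.1 kb away.

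Long autosomal intervals with few genes also held many distal erythroblast-only peaks. The interval from Rbm26 to Dnajc3 on chromosome 14 held 83 in 13.8 Mb with 15 shared peaks, and its 16 unlisted genes include a run of 3 Slitrk genes. The interval from Stim2 to Pgm2 on chromosome 5 held 71 in 9.98 Mb with only 7 unlisted genes, and that from Jade1 to Noct on chromosome 3 held 61 in 9.61 Mb with 6.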
